A study of Mus musculus with 115 samples.

Results

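Hearts of mice without Ant1 were compared with wild type hearts when both had received a vector that carries Ant1, to ask which transcripts still differed after the gene was supplied. The knockout group held 4 hearts with 20 libraries and the wild type group 3 hearts with 10 libraries, together 7 of the 22 hearts of the series and 30 of its bulk libraries. A heart was taken as the libraries that share a title number, a genotype and a title code, and the counts of its libraries were summed. The knockout hearts are numbered 20, 21, 22 and 27, and the wild type hearts 80, 81 and 83. The numbers 20, 21 and 22 also occur in titles of knockout hearts with an ND6 variant and the control vector, which were counted as other hearts because genotype and title code differ. Knockout animals were C57BL/6JEiJ ANT1 -/- and wild type animals C57BL/6JEiJ. By the labels of the libraries used, all 7 hearts received 2.5e+11 vector genomes of AAV2/9Des-Gfp-mAnt1 by pericardial injection. This adeno-associated virus carries mouse Ant1 and Gfp, so by these labels both groups carry the transgene. Libraries 80a and 80b were left out because their label names the other vector, so the labels conflict on the vector of heart 80. For comparison, 3 knockout hearts (35, 36 and 38) and 4 wild type hearts (23, 24, 25 and 70) received the same dose of AAV2/9Des-Gfp, which lacks Ant1. Age and sex are not in the labels used here, and the labels do not state that each number is a separate animal. The p-values therefore measure only the spread between hearts defined in this way. That spread was estimated over all 22 hearts of the series, not from the compared hearts alone. RNA was read with an amplicon panel that has 1 amplicon for nearly every gene, and levels are counts scaled to a common library size (CPM), which can be compared between hearts but not between genes.

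Ant1, encoded by Slc25a4, is the adenine nucleotide carrier of heart and skeletal muscle. It sits in the inner mitochondrial membrane and exchanges ATP made in the matrix for ADP from the cytosol, so that the contractile apparatus and the ion pumps are supplied. Mice without it are known to develop mitochondrial myopathy and an enlarged heart with abundant, abnormal mitochondria. Stretched or energy-starved ventricular muscle typically turns on a stress programme that includes the natriuretic peptide Nppb, the skeletal actin Acta1 and the ankyrin repeat proteins Ankrd1 and Ankrd2. Stressed mitochondria are known to turn on chaperones, import factors and secreted signals such as Gdf15.

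Acta1 and Ankrd1 rose under both vectors, and the 250 bases before their starts are shown as a chosen pair. Of the cardiac stress genes described further on, 6 were higher under both vectors, and windows of the others are not shown. The share over all promoters given below is no test of this chosen pair. They come from RefSeq with the build GRCm38.p6, read 5′ to 3′ on the strand of the gene. Acta1 lies on the minus strand with its window at chr8:123894776-123895025, and Ankrd1 lies on the minus strand with its window at chr19:36119845-36120094. The capitals mark CATTCC on either strand (GGAATG on the opposite one), the core of the MCAT element that TEAD factors bind.
Acta1: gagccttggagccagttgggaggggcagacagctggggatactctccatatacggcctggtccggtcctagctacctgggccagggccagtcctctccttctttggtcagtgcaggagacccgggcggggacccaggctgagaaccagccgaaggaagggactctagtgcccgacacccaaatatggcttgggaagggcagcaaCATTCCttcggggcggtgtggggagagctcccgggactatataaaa
Ankrd1: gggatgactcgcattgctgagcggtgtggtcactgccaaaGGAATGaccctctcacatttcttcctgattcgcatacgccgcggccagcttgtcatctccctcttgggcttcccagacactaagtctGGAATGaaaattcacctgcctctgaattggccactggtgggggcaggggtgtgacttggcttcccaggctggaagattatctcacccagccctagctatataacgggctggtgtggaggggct
The Acta1 window held 1 match and the Ankrd1 window held 2. Of 32851 promoter windows of this length, 4153 (12.6%) held at least 1 match. A match describes the letters and is not a measured binding site.

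The library totals of the 7 hearts ran from 2893780 to 8531273 counts, and the summed heart totals from 16827518 in heart 80 to 53106670 in heart 27. Heart 27 stood apart. The median over genes of the squared difference between libraries, relative to counting noise (1 for noise alone), lay between 3.2 and 53.4 among its 8 libraries, with a median of 29.55 over 28 pairs. Among the libraries of the other 6 hearts it lay between 1.35 and 4.08 over 36 pairs, and between different hearts of a group other than 27 it lay between 4.96 and 11.8. The 36 pairs include those of libraries 80a and 80b. Library 27a, the shallowest of those compared, differed from 27b, 27c and 27d of its own count table by 38.6 to 41.5 on this measure. Those differed from each other by 3.2 to 9.32, and from libraries e to h by 18.8 to 53.4. Without 27a, 1535 genes passed under the Ant1 vector and 79 in the difference between vectors. Libraries a to d and e to h sit in different count tables, so values without heart 27, or from either set of its libraries, are given where they bear on a result. The a to d means include 27a. A summed set of 15 airway epithelium transcripts, chosen after the data were seen, stood at 1.259, 2.38, 719.4 and 55.34 CPM in knockout hearts 20, 21, 22 and 27. The same sum was 2.589, 3.24 and 91.77 CPM in wild type hearts 80, 81 and 83. None of the 12 airway transcripts tested passed under the Ant1 vector, and their part in the results was not tested. The sum was 3968 CPM in wild type control-vector heart 70 and 317 CPM in knockout control-vector heart 36. Without knockout hearts 22 and 27 and heart 70, 1234 genes passed under the Ant1 vector, 984 of them among those called with these hearts. In the difference between vectors, 74 genes passed. Hearts 36 and 83 stayed in this fit, though both were higher in these transcripts than heart 27. Only knockout heart 20 shares count tables with the wild type hearts, so a fit with it as the only knockout heart was also made. Its spread comes from the other groups, and 1 heart gives it less power. In the fit with the count table as a covariate, the comparison under the Ant1 vector likewise rests on heart 20 alone. There the single libraries are the units, with a fitted correlation of 0.196 within a heart.

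Slc25a4, the targeted gene, was low in every knockout heart and higher where the Ant1 vector had been given. It (chr8:46207168-46211062) stood at 197.4, 197.5, 241.4 and 174.3 CPM in knockout hearts 20, 21, 22 and 27 under the Ant1 vector. Wild type hearts 80, 81 and 83 stood at 10210, 8968 and 10260 CPM, inside the 8464 to 11380 CPM of the wild type hearts with the control vector. Each knockout heart therefore carried between 1.78% and 2.46% of the wild type mean of 9812 CPM, and the knockout mean of 202.7 ± 28.03 CPM (SD, n = 4) was 2.07% of it. The gene was lower in the knockout by a log2 change of -5.6 (SE 0.64, adjusted p = 8.13e-06, edgeR quasi-likelihood test with Benjamini-Hochberg adjustment). Without the Ant1 transgene, knockout hearts 35, 36 and 38 held 62, 19 and 10 counts, or 2.026, 0.6173 and 0.3306 CPM. The knockout mean under the Ant1 vector was 204.4 times the mean under the control vector, and the 4 knockout hearts with the transgene did not overlap the 3 without it. Knockout hearts with the Ant1 vector share no count table with those given the control vector. The knockout effect differed between the vectors by 7.75 on the log2 scale (SE 1.03, adjusted p = 0.003158). The counts do not separate transgene RNA from native RNA. The labels do not say whether the amplicon lies in the part of the gene that the transgene carries, so how far these counts measure vector RNA was not tested. In bulk tissue few cells with much transgene and many cells with little cannot be told apart.

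**Figure D1:**
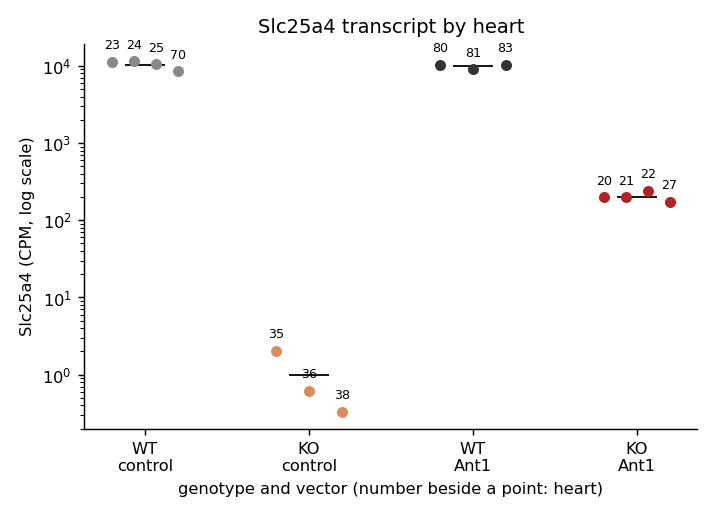
Slc25a4 in every heart of the 4 groups, on a log axis of CPM, with 1 point per heart. The 4 knockout hearts with the Ant1 vector sit between 174.3 and 241.4 CPM, above the knockout hearts with the control vector (0.3306 to 2.026) and below every wild type heart.

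Across all 15403 genes tested, 1524 (9.89%) passed the adjusted p threshold of 0.05 between knockout and wild type under the Ant1 vector. Of these, 827 (5.37%) were higher in the knockout and 697 (4.53%) lower. The hearts of the groups did not overlap for 3073 genes (20.0%), 1593 (10.3%) of them higher and 1480 (9.61%) lower in the knockout, and these included 1406 of the 1524. A fall of at least 2-fold was reached by 96 of the 697 lower genes. The median log2 change over all genes was 0.01. The count of 1524 fell to 894 without wild type heart 80 and to 782 without wild type heart 83, and it was 1642 without knockout heart 27. It was 866 when only the groups compared entered the fit, and 473 when heart 20 was the only knockout heart.

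Under the control vector, 2220 genes (14.4%) passed, 1261 (8.19%) higher and 959 (6.23%) lower in the knockout, with a median log2 change of -0.03. The comparisons under the Ant1 and the control vector share no heart. Passing in the same direction under both vectors were 674 genes (4.38%), of which 464 (3.01%) were higher and 210 (1.36%) lower. They make up 44.2% of the Ant1-vector list and 30.4% of the control-vector list. On the higher side the shared genes were 56.1% of the Ant1-vector list and 36.8% of the control-vector list, and on the lower side 30.1% and 21.9%. Their median size was 0.55 on the log2 scale under the Ant1 vector and 0.6 under the control vector, and 384 of the 674 were smaller under the Ant1 vector. Among them 77 rose and 48 fell at least 2-fold under both vectors. Without wild type heart 83 the shared count was 436, and without knockout heart 38 the control-vector count was 1366.

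**Figure D2:**
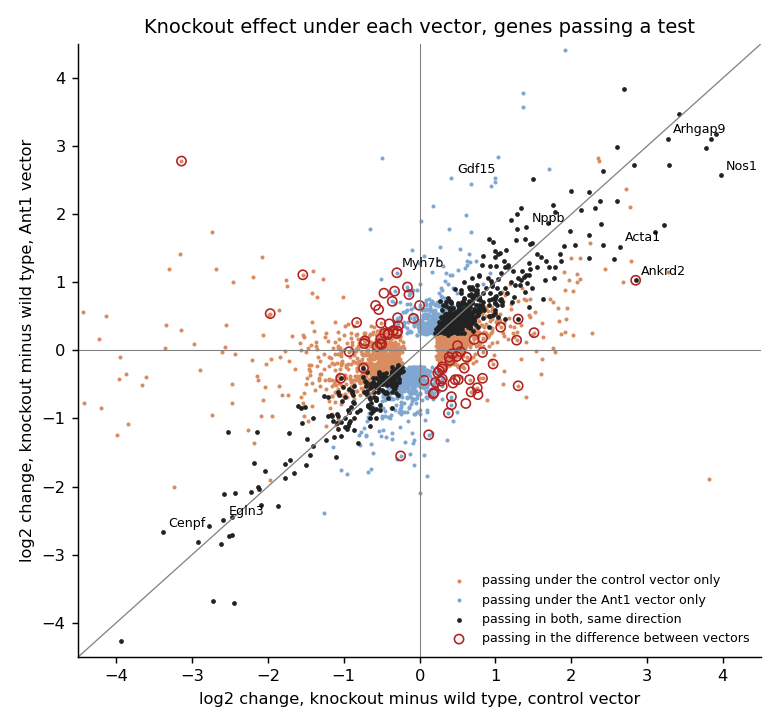
Log2 change of knockout against wild type under the control vector (x axis) and the Ant1 vector (y axis), 1 point per gene that passed a test, with the diagonal where both are equal. Black points are the 464 higher and 210 lower genes shared by both vectors, red circles are the 77 genes whose change differs between the vectors, and 37 genes lie outside the plotted limits of 4.5.

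Part of the stress programme of ventricular muscle was higher in the knockout under the Ant1 vector. Of 22 tested genes linked to cardiac stress and the fetal programme, 7 were higher and 2 lower in the knockout under the Ant1 vector, with a median log2 change of 0.08 against 0.01 for all genes. Over all genes 5.37% were higher and 4.53% lower, against which this and the later list counts are to be read. Under the control vector 12 were higher and none lower, with a median of 0.54. For 2 of the 22 genes the difference between the vectors passed. Of the 7, 6 were higher under both. Without wild type heart 80 the higher count under the Ant1 vector was 4, and without wild type heart 83 the lower count was 1. Summed counts of the whole list overlapped between the groups.

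Nppb, the brain natriuretic peptide that ventricles release under load, stood at 2242, 1676, 1855 and 710.6 CPM in knockout hearts 20, 21, 22 and 27. The wild type hearts stood at 407, 466.2 and 511.9 CPM. All knockout hearts were above all wild type hearts, with heart 27 the closest. The means were 1621 ± 651.3 CPM (SD, n = 4) and 461.7 ± 52.57 CPM (SD, n = 3), a 3.51-fold rise with a log2 change of 1.81 (SE 0.28, adjusted p = 0.000309). Under the control vector the log2 change was 1.41 (adjusted p = 0.001063), and the difference between the vectors was 0.4 (SE 0.38, adjusted p = 0.6748). Nppb split within heart 27, with a mean of 992.8 CPM over libraries a to d and 464.2 CPM over libraries e to h, the latter near the wild type mean. The log2 change was 2.06 without heart 27 and 1.75 with libraries e to h alone standing for it (adjusted p = 0.002327). Nppa, the atrial peptide of the same family, ranged from 3564 to 4358 CPM in the knockout and from 3368 to 3729 CPM in the wild type, and its log2 change of 0.1 did not pass (adjusted p = 0.8448).

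Acta1, the skeletal muscle actin that the fetal heart uses, stood at 790.5, 459.1, 607.6 and 320.8 CPM in knockout hearts 20, 21, 22 and 27. The wild type hearts stood at 169.8, 199.1 and 200.9 CPM, again without overlap. The rise was 2.87-fold, a log2 change of 1.52 (SE 0.3, adjusted p = 0.00271), and 1.71 without heart 27. Under the control vector the knockout hearts reached 672.6 to 978.9 CPM and the log2 change was 2.64 (adjusted p = 3.1e-06), a difference of -1.13 (SE 0.41) that did not pass (adjusted p = 0.2074).

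Ankrd1, a titin-binding protein induced by stretch, had the tightest wild type values of the set. Its knockout hearts stood at 2833, 2331, 2512 and 2350 CPM and its wild type hearts at 1411, 1391 and 1372 CPM. Its level was 1.8-fold higher, a log2 change of 0.85 (SE 0.17, adjusted p = 0.003013), against 1.06 under the control vector. Ankrd2, its relative in stretched muscle, rose by a log2 change of 1.03 (SE 0.29, adjusted p = 0.02907), from 1.412 to 2.651 CPM in the wild type to 3.295 to 7.137 CPM in the knockout. Its change under the control vector was 2.85, and the difference of -1.82 passed (adjusted p = 0.04085). The call for Ankrd2 under the Ant1 vector was lost without knockout heart 20 (adjusted p = 0.1012) and without wild type heart 80 (0.1386), 81 (0.05912) or 83 (0.05637).

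Other members of the list include structural proteins. Des, the intermediate filament desmin, rose by a log2 change of 0.32 (adjusted p = 0.006515), and its small chaperone Cryab rose by 0.38 (adjusted p = 0.009294), a call lost without wild type heart 80 (adjusted p = 0.06676). Fhl2, a LIM protein of the sarcomere that restrains hypertrophic signalling, fell by 0.76 on the log2 scale (adjusted p = 0.000159), from 1660 to 2157 CPM in the wild type to 1014 to 1222 CPM in the knockout. With the control vector its log2 change of -0.25 did not pass (adjusted p = 0.1506), and the difference between the vectors did not pass either (adjusted p = 0.1336). Fhl2 was therefore lower in every knockout heart with the Ant1 vector, while no difference between the vectors was shown. With heart 20 as the only knockout heart the Des log2 change was 0.27 and its call was lost (adjusted p = 0.2215).

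**Figure D3:**
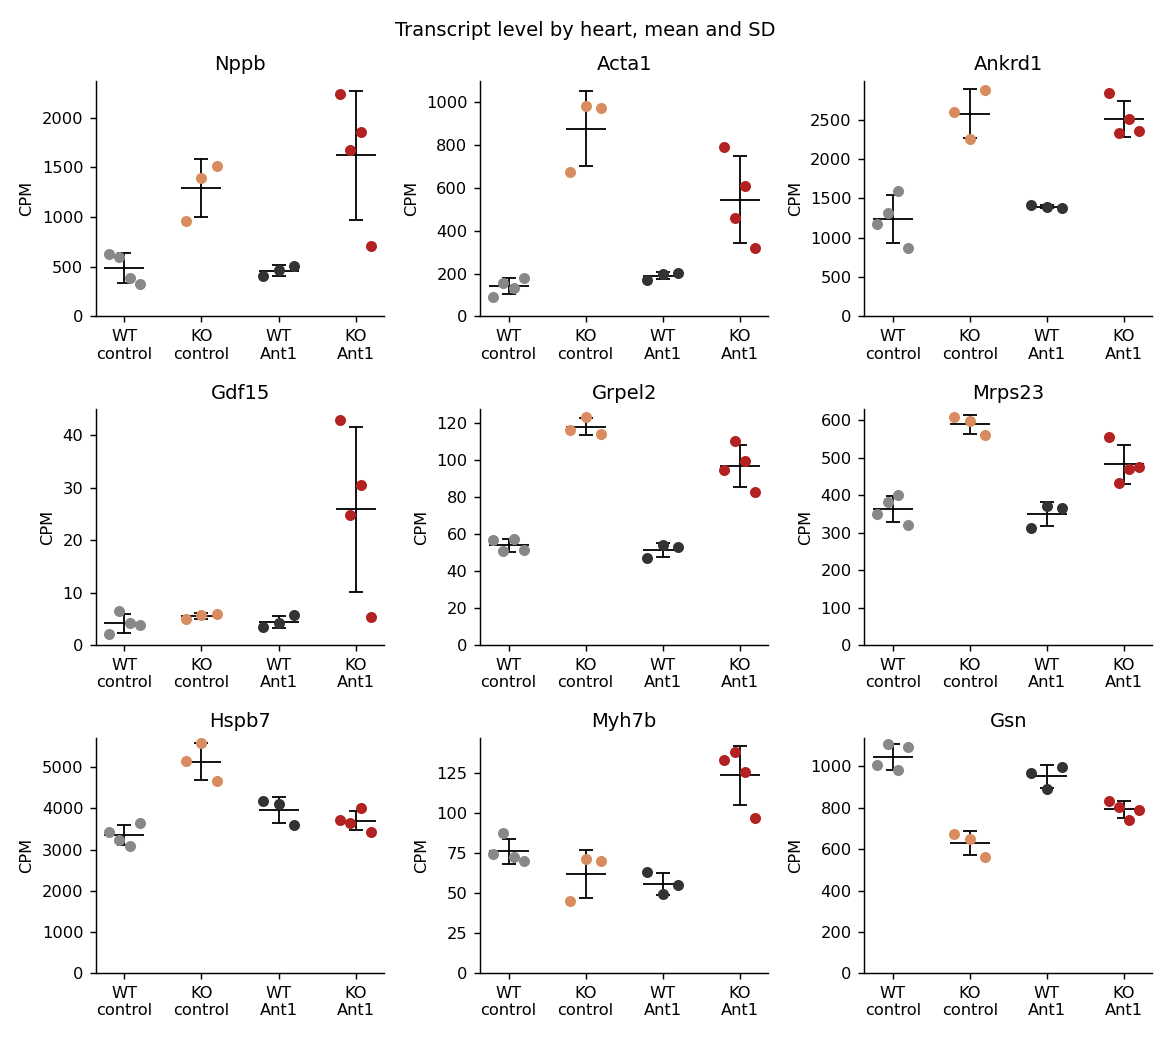
Levels of 9 genes in each heart of the 4 groups, in CPM on linear axes from 0, 1 point per heart with the group mean and SD. Nppb, Acta1 and Ankrd1 sit higher in the knockout hearts under both vectors, and heart 27 is the lowest knockout heart with the Ant1 vector for Nppb (710.6 CPM) and Acta1 (320.8 CPM).

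Gdf15 (chr8:70629393-70632470), a secreted signal of mitochondrial and cellular stress, was high in 3 of the 4 knockout hearts. Its levels were 42.89, 24.71, 30.56 and 5.293 CPM in knockout hearts 20, 21, 22 and 27, and 3.413, 4.098 and 5.647 CPM in the wild type. Gdf15 lies in the stretch of chromosome 8 around Slc25a4 that is described further on. Heart 27 lay inside the wild type range, so the groups overlap. The log2 change was 2.53 (SE 0.49, adjusted p = 0.002144), and 2.89 without heart 27 (adjusted p = 1.34e-05). Knockout hearts with the control vector stood at 4.967, 5.751 and 5.884 CPM, with a log2 change of 0.42 (adjusted p = 0.6014), and the difference of 2.11 (SE 0.68) did not pass (adjusted p = 0.1454). Of 35 tested genes of the integrated stress response, the programme that reduces translation and raises amino acid metabolism, 4 were higher and 3 lower, with a median of 0.02. The higher count was 2 without knockout heart 20 or without wild type heart 80 or 81, and 8 of 33 with the count table as a covariate. Besides Gdf15, Sars, a seryl-tRNA synthetase, rose by 0.36 (adjusted p = 0.005458) and by 0.47 under the control vector. Cth, the last enzyme of cysteine synthesis from methionine, fell by 0.91 on the log2 scale (adjusted p = 0.001735), and Aldh1l2, a mitochondrial folate enzyme, fell by 0.64 (adjusted p = 0.008179). Aldh1l2 was also lower under the control vector, at -0.69, while Cth stood at -0.04 there (difference adjusted p = 0.09896). The members that moved therefore went both ways. With heart 20 as the only knockout heart, the log2 changes were -0.76 for Aldh1l2 (adjusted p = 0.06188) and -0.93 for Cth (adjusted p = 0.09402), and both calls were lost.

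Among genes for mitochondrial protein import, chaperones and proteases, those that passed were all higher. Of 26 tested, 7 were higher and none lower under the Ant1 vector, with a median log2 change of 0.21, and the same 7 were among 12 higher under the control vector, where the median was 0.28. With only the groups compared in the fit the count was 4. Grpel2, a nucleotide exchange factor of the matrix Hsp70 motor, stood at 94.36, 110.3, 99.52 and 82.7 CPM in knockout hearts 20, 21, 22 and 27 and at 47.02, 53.81 and 52.86 CPM in wild type hearts. Every knockout heart was above every wild type heart, and the log2 change was 0.92 (SE 0.1, adjusted p = 5.44e-06) against 1.13 under the control vector. Its paralog Grpel1 rose by 0.51 (adjusted p = 0.000432). Tomm22, a receptor of the outer membrane translocase, rose by 0.66 (SE 0.11, adjusted p = 0.000491), from 30.27 to 37.31 CPM in the wild type to 47.56 to 61.98 CPM in the knockout. Tomm40, the pore of the same complex, rose by 0.42 (adjusted p = 0.004539), a call lost when heart 27 was represented by libraries a to d alone (adjusted p = 0.1287). For none of these 4 genes did the difference between the vectors pass.

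Among mitochondrial ribosomal proteins the genes that passed were also all higher. Of 69 tested, 14 were higher and none lower, with a median log2 change of 0.15, and 55 of the 69 had a positive log2 change. For the control vector 24 were higher and none lower, with a median of 0.25, and 12 were higher under both. The count of 14 fell to 8 without wild type heart 81, to 5 without wild type heart 83, to 6 with only the groups compared in the fit, to 7 with the count table as a covariate, and to 4 with heart 20 as the only knockout heart. Mrps23, a small-subunit protein, stood at 555.3, 432.3, 469 and 476 CPM in knockout hearts 20, 21, 22 and 27 and at 313.5, 370.9 and 366.2 CPM in wild type hearts. Its log2 change was 0.46 (SE 0.09, adjusted p = 0.002466) against 0.7 under the control vector. Within heart 27, libraries a to d averaged 630.6 CPM and libraries e to h 349.2 CPM, and with e to h alone standing for the heart the adjusted p was 0.05346. Mrpl55 rose by 0.55 (adjusted p = 0.000491), Mrpl41 by 0.45 (adjusted p = 0.003985) and Mrps18b by 0.38 (adjusted p = 0.00819), of which Mrpl41 lost its call with heart 20 as the only knockout heart (log2 change 0.35, adjusted p = 0.2206). Few subunits of the respiratory chain itself passed. Of 32 nuclear complex I subunits 1 was higher (Ndufb7, 0.37, adjusted p = 0.01224), of 40 subunits of complexes II to V 1 was higher, Cox6a1 (0.37, adjusted p = 0.006884), and none was lower.

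**Figure D4:**
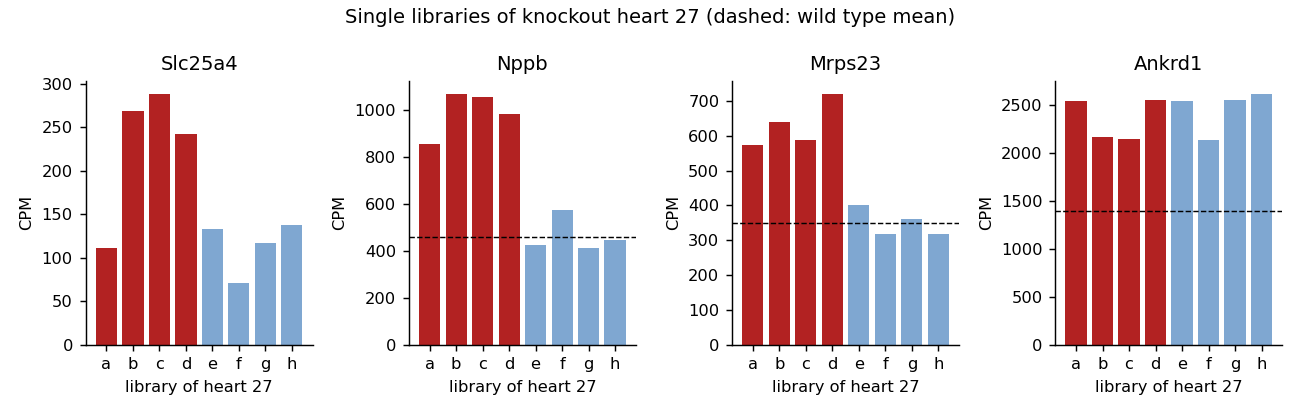
Levels of 4 genes in each of the 8 libraries of knockout heart 27, in CPM on linear axes from 0, 1 bar per library, with the mean of the wild type hearts with the Ant1 vector dashed (above the axis for Slc25a4). For Nppb the libraries a to d average 992.8 CPM and the libraries e to h 464.2 CPM, near the wild type mean of 461.7 CPM.

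Among genes for mitochondrial shape and quality control, Optn rose the most of those named. Of 24 tested genes of fusion, fission and mitophagy, 5 were higher and 1 lower, and 4 higher and 1 lower were shared with the control vector. Without wild type heart 81, 2 were higher. Optn, a receptor that links ubiquitinated mitochondria to autophagy, stood at 289.8, 284.7, 265.5 and 187.3 CPM in knockout hearts 20, 21, 22 and 27 and between 98.33 and 114.1 CPM in wild type hearts. Its rise was 2.36-fold, a log2 change of 1.24 (SE 0.15, adjusted p = 2.31e-05) and 1.37 without heart 27, against 1.01 under the control vector. Opa1, the inner membrane fusion protein, rose by 0.34 (adjusted p = 0.005933). Pink1, the kinase that marks damaged mitochondria, fell by 0.32 on the log2 scale (adjusted p = 0.008927), and it was lower under the control vector at -0.54. With heart 20 as the only knockout heart the Pink1 log2 change was -0.37 and its call was lost (adjusted p = 0.1068).

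Some genes that supply and move high-energy phosphate rose, among them muscle creatine kinase and the creatine importer. Of 19 tested energy shuttle genes, 5 were higher and 2 lower, with a median log2 change of 0.15, against 6 higher and 1 lower under the control vector. The lower count was 0 or 1 in every fit that left out 1 of the 7 hearts. Ckm, the muscle creatine kinase, stood at 923.8, 747.8, 708.1 and 759 CPM in knockout hearts 20, 21, 22 and 27 and at 504.5, 506.7 and 477.6 CPM in wild type hearts. Its log2 change was 0.66 (SE 0.1, adjusted p = 0.000154), against 0.31 under the control vector. Slc6a8, the creatine importer, rose by 0.56 (adjusted p = 0.001017), with all 4 knockout hearts (348.5 to 502 CPM) above the wild type hearts (292 to 301.8 CPM). Prkab1, a regulatory subunit of the energy sensor AMPK, rose by 0.57 (adjusted p = 0.001058).

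Among fuel genes, subunits of pyruvate dehydrogenase and glycogen enzymes rose, while Pfkfb1 and the fatty acid importer Cd36 fell. Of 29 tested genes of pyruvate oxidation and the tricarboxylic acid cycle, 5 were higher and 1 lower, and the higher count was 1 without wild type heart 80 and 2 without wild type heart 83. Pdhb, a subunit of the pyruvate dehydrogenase that feeds the cycle, stood at 972.4, 1051, 1027 and 801.5 CPM in knockout hearts 20, 21, 22 and 27 and at 603.1, 546.6 and 599.3 CPM in wild type hearts. Its log2 change was 0.72 (SE 0.09, adjusted p = 1.62e-05), against 0.4 under the control vector. Pdhx, which anchors another subunit of the same complex, rose by 0.52 (adjusted p = 0.009831), a call lost without wild type heart 80 (adjusted p = 0.056) or 83 (0.05121). Of 24 tested genes of glycolysis and glucose storage 7 were higher and 3 lower, with a median of 0.11, and the higher count was 4 without knockout heart 21 or wild type heart 81. The lower count was 1 without knockout heart 21 or 22 or wild type heart 80. Ugp2, which makes the glucose donor for glycogen, rose by 0.76 (adjusted p = 0.00239), Gbe1, the glycogen branching enzyme, by 0.41 (adjusted p = 0.000599), and Pgam2, the muscle phosphoglycerate mutase, by 0.49 (adjusted p = 0.002321). All these were higher under the control vector too, at 1.07 for Ugp2, 0.59 for Gbe1 and 0.52 for Pgam2.

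Pfkfb1, which makes and removes the activator of phosphofructokinase, went the other way. It stood at 15.18, 17.21, 19.86 and 35.19 CPM in knockout hearts 20, 21, 22 and 27 and at 64.67, 64.11 and 62.69 CPM in wild type hearts. The log2 change was -1.53 (SE 0.31, adjusted p = 0.002819) and -1.87 without heart 27, against 0.06 under the control vector (difference adjusted p = 0.09107). Of 31 tested genes of fatty acid uptake and oxidation, 2 were higher and 2 lower, with a median of -0.12, shares near those over all genes (5.37% and 4.53%). Cd36, the main fatty acid importer of the heart, fell by 0.51 on the log2 scale (SE 0.11, adjusted p = 0.004099), from 1967 to 2138 CPM in the wild type to 1268 to 1650 CPM in the knockout. In the control vector hearts its log2 change was 0.06 (difference adjusted p = 0.08991). The Cd36 call was lost with heart 20 as the only knockout heart (log2 change -0.31, adjusted p = 0.3817) and with the count table as a covariate (-0.33, adjusted p = 0.3158).

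Some channel genes fell, among them the connexin Gjc1 and a T-type calcium channel. Of 22 tested conduction and channel genes, none was higher and 6 were lower, with a median log2 change of -0.32, and 2 of the 6 were also lower under the control vector. With heart 20 as the only knockout heart, 1 was lower. Gjc1, the connexin 45 of the conduction system, stood at 20.47, 19.59, 21.72 and 18.23 CPM in knockout hearts 20, 21, 22 and 27 and at 38.48, 31.54 and 40.68 CPM in wild type hearts. Its log2 change was -0.88 (SE 0.09, adjusted p = 1.74e-06), against -0.52 under the control vector. Cacna1g, a T-type calcium channel, fell by 0.99 (adjusted p = 0.0046), Kcnj2, the inward rectifier that sets the resting potential, by 0.85 (adjusted p = 0.00508), and Cacnb2, a subunit of the L-type calcium channel, by 0.5 (adjusted p = 0.009419). With heart 20 as the only knockout heart the log2 changes were -1.09 for Cacna1g (adjusted p = 0.09045), -0.81 for Kcnj2 (0.1373) and -0.51 for Cacnb2 (0.1243), and these 3 calls were lost.

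Of 23 tested calcium handling genes, 2 were higher and 5 lower, with a median log2 change of -0.03, and the lower count was 3 without wild type heart 81. The higher count was 1 without any of knockout hearts 20, 21 or 22 or wild type hearts 80, 81 or 83. Ryr2, the calcium release channel of the sarcoplasmic reticulum, stood at 545.3, 458.6, 569.3 and 577.9 CPM in knockout hearts 20, 21, 22 and 27 and at 850, 920.7 and 756.3 CPM in wild type hearts. The log2 change was -0.65 (SE 0.14, adjusted p = 0.004715), and no knockout heart reached the wild type range. With the control vector the change was -0.03, but the difference between the vectors did not pass (adjusted p = 0.1406), and with heart 20 as the only knockout heart the Ryr2 log2 change was -0.63 and its call was lost (adjusted p = 0.1428). Casq1, the skeletal form of the calcium store protein, fell by 2.09 (adjusted p = 4.97e-05) and was at -2.44 under the control vector. S100a1, a calcium sensor that supports release and uptake, rose by 0.53 (adjusted p = 0.002237).

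Among chaperones of the endoplasmic reticulum more genes fell than rose, and the calcium-binding Calr fell furthest. Of 22 tested, 1 was higher and 6 lower, with a median log2 change of -0.3, the same median as under the control vector, where 1 was higher and 10 lower. The lower count was 3 without knockout heart 21 or 27 or wild type heart 81, and 1 without wild type heart 83. Without the genes of chromosome 8 from 30 to 95 Mb, the stretch described further on that holds Calr, 1 of 19 was higher and 4 were lower. Calr, calreticulin, stood at 2.834, 4.577, 4.162 and 2.562 CPM in knockout hearts 20, 21, 22 and 27 and at 508.2, 518.5 and 576.5 CPM in wild type hearts. No knockout heart came near the wild type range, and the log2 change was -7.26 (SE 0.17, adjusted p = 9.03e-18), against -7.44 under the control vector. Sdf2l1, a cofactor of the chaperone BiP, fell by 0.68 (adjusted p = 0.02635), a call lost without knockout heart 27 (adjusted p = 0.05668) or wild type heart 83 (0.2161). The 1 higher gene was Ern1, the IRE1 sensor of the unfolded protein response, with a log2 change of 0.62 (adjusted p = 0.000491).

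The widest falls gathered near Slc25a4 on chromosome 8. In the 30 to 95 Mb stretch of chromosome 8, 367 genes were tested and 39 (10.6%) were higher and 47 (12.8%) lower, against 758 (5.29%) higher and 622 (4.34%) lower of 14337 on other chromosomes. All 6 genes with at least 5 CPM in the wild type and a fall of at least 16-fold lay in this stretch. Besides Slc25a4 and Calr these include Pdgfrl, which had 1 count in all 4 knockout hearts together against 8.768, 6.862 and 6.722 CPM in wild type hearts. Ubxn8 (a membrane protein of the endoplasmic reticulum) had 4 counts in the knockout hearts and 10.33 to 12.33 CPM in the wild type. Ppp1r3b, which targets a phosphatase to glycogen, had 5 counts in the knockout hearts and 5.496 to 5.762 CPM in the wild type, and Zswim4 had 22 counts. For the control vector the fitted log2 changes were -7.42 for Ubxn8, -7.25 for Ppp1r3b and -6.76 for Zswim4. Of 356 windows of 5 Mb with at least 15 tested genes, the median window had 3.7% of its genes changed under both vectors, and chromosome 8 from 40 to 45 Mb was highest with 6 of 15 (40%). Leaving out the 503 amplicons of the 30 to 95 Mb stretch left 1415 genes passing under the Ant1 vector.

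Il15 and Mfhas1 lie in the same stretch and were lower under both vectors. Il15, a cytokine that sustains lymphocytes, had a log2 change of -2.85 (adjusted p = 5.3e-12) against -2.62 there. Mfhas1 had -2.71 (adjusted p = 3.59e-14) against -2.48. Outside the stretch, Cenpf, a kinetochore protein, had -2.67 (adjusted p = 4.34e-07) against -3.39. Egln3, an oxygen-sensing prolyl hydroxylase, stood at 14.38, 12.81, 11.24 and 14.05 CPM in knockout hearts 20, 21, 22 and 27 and at 71.32, 66.84 and 82.82 CPM in wild type hearts. The log2 change was -2.49 (SE 0.16, adjusted p = 9.34e-10), against -2.59 under the control vector.

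The widest rise was in Sycp1, a protein of the synaptonemal complex that belongs to meiosis. It stood at 15.46, 22.41, 20.99 and 22.08 CPM in knockout hearts 20, 21, 22 and 27 and at 0.05884, 0.1588 and 0.1152 CPM in wild type hearts, a log2 change of 7.35 (SE 0.28, adjusted p = 4.73e-14). Arhgap9, a GTPase-activating protein of blood cells, stood at 105.9, 87.94, 70.53 and 57.21 CPM against 8.238, 10.55 and 8.989 CPM, a log2 change of 3.11 (adjusted p = 4.21e-06) and 3.25 without heart 27. Tmem116, a membrane protein, reached 143.4, 139.1 and 112.9 CPM in hearts 20, 21 and 22 and less in heart 27, against 18.17 to 19.6 CPM in the wild type, a log2 change of 2.73 (adjusted p = 2.38e-11) and 2.81 without heart 27. Nos1, the neuronal nitric oxide synthase, rose by 2.57 (adjusted p = 1.6e-05) and Grin2c, a glutamate receptor subunit, by 2.63 (adjusted p = 1.66e-07). The same genes were higher under the control vector, with log2 changes of 7.78 for Sycp1, 3.27 for Arhgap9, 2.83 for Tmem116, 3.97 for Nos1 and 2.42 for Grin2c.

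Markers of other cell types moved in part. Of 22 endothelial markers 4 were higher and none lower, with a median log2 change of 0.17, against 1 higher and none lower under the control vector, and with heart 20 as the only knockout heart 1 was higher. With libraries a to d alone standing for heart 27, 2 were higher. For 1 of the 22 endothelial markers the difference between the vectors passed. Sox18, a transcription factor of vessel endothelium, stood at 84.28, 96.36, 92.36 and 80.96 CPM in knockout hearts 20, 21, 22 and 27 and at 52.96, 48.06 and 49.82 CPM in wild type hearts. The log2 change was 0.82 (SE 0.14, adjusted p = 0.000658), a call lost with heart 20 as the only knockout heart (log2 change 0.74, adjusted p = 0.05566). Aqp1, the water channel of endothelium, rose by 0.45 (adjusted p = 0.00341), and Flt1, a receptor of vascular growth factor, by 0.4 (adjusted p = 0.008927), a call lost without wild type heart 83 (adjusted p = 0.05186). Fewer cells of a type and less RNA per cell cannot be told apart in these bulk hearts.

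Fibroblast markers gave 2 lower of 16 and none higher, with a median of -0.08, against 8 lower and a median of -0.41 under the control vector. For 1 of the 16 the difference between the vectors passed. The lower count was 1 without knockout heart 22 or wild type heart 80 or 83, and with the count table as a covariate 3 of 15 were higher and 3 lower. Wif1, a secreted Wnt inhibitor, stood at 3.149, 3.771, 4.49 and 4.653 CPM in knockout hearts 20, 21, 22 and 27 and at 11.71, 8.387 and 7.836 CPM in wild type hearts, a log2 change of -1.2 (SE 0.17, adjusted p = 0.000136). Gsn, the actin-severing gelsolin, fell by 0.26 (adjusted p = 0.02212), a call lost without knockout heart 22 (adjusted p = 0.06926) or wild type heart 80 (0.08068) or 83 (0.1127). None of 34 interferon response genes passed in either direction. Of 19 macrophage markers 1 was lower, and none of 10 liver and none of 17 adipocyte markers passed under the Ant1 vector. Jchain, the joining chain of secreted antibodies, stood at 0.8047, 33.98, 3.541 and 15.75 CPM in knockout hearts 20, 21, 22 and 27 and at 0.6473, 0.5718 and 0.6914 CPM in wild type hearts, with an adjusted p of 0.03731. Its call rests on single hearts, since it was lost without knockout heart 21 (adjusted p = 0.1094) or wild type heart 80 (0.1136), 81 (0.1158) or 83 (0.126). Of 12 genes that define heart muscle cells 1 was higher and 1 lower.

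**Figure D5:**
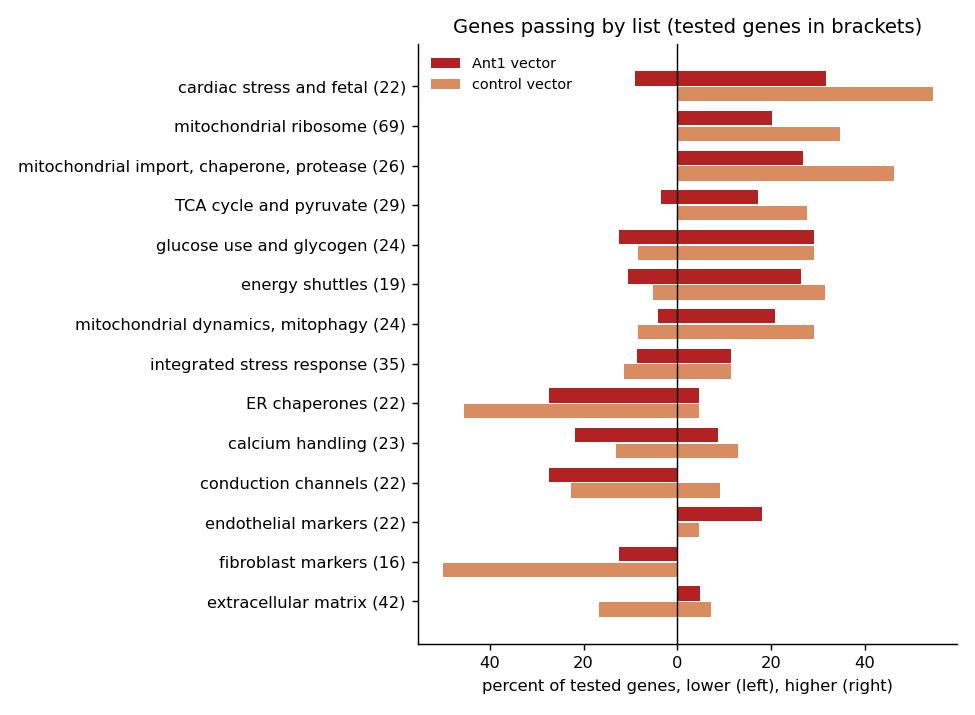
For each gene list, the percent of tested members that passed as higher (right) and lower (left) in the knockout under the Ant1 vector and under the control vector. Under the Ant1 vector the mitochondrial ribosome and import lists have bars to the right only (14 and 7 genes) and the conduction channels a bar to the left only (6 genes).

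The size of the knockout effect was tested against the vector, gene by gene, as an interaction. It passed for 77 genes (0.500%), 34 with a higher and 43 with a lower change under the Ant1 vector. No count table holds compared libraries of both vectors. Within each vector most knockout hearts sit in other tables than the wild type hearts. A difference between vectors therefore cannot be told apart from one between count tables. Of the 2220 genes called under the control vector 56 were among the 77, and 1834 (82.6%) had the same sign under the Ant1 vector, with a median of 0.25 in that direction against 0.52 where they were called. Of the 1524 genes called under the Ant1 vector, 1339 (87.9%) had the same sign under the control vector, with a median of 0.3 against 0.49. Each list was chosen on its own values, and both medians were smaller in the other comparison. Passing in opposite directions under the 2 vectors were 14 genes, and all 14 passed the interaction. The count of 77 was 172 without knockout heart 27. It was between 15 and 34 without any of knockout hearts 21, 22, 35, 36 and 38 or wild type hearts 80, 81, 83 and 70, lowest without heart 81, and it was 38 without wild type heart 24 and 46 without wild type heart 25.

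Named genes of this kind include muscle proteins. Hspb7, a small heat shock protein of heart muscle, stood at 3727, 3649, 4002 and 3427 CPM in knockout hearts 20, 21, 22 and 27 and at 4174, 4105 and 3586 CPM in wild type hearts, with no change that passed (adjusted p = 0.5284). In the control vector hearts it was raised by a log2 change of 0.62 (adjusted p = 3.48e-05), and the difference of -0.71 (SE 0.12) passed (adjusted p = 0.01174). Myh7b, a slow-type myosin heavy chain, stood at 133.7, 138.2, 126.2 and 96.96 CPM in knockout hearts and at 63.26, 49.72 and 55.32 CPM in wild type hearts, a log2 change of 1.14 (SE 0.18, adjusted p = 0.000392). With the control vector it was -0.3 without passing, and the difference of 1.44 passed (adjusted p = 0.0136) but not without wild type heart 81 (adjusted p = 0.05768). Libraries a to d of heart 27 averaged 64.78 CPM and e to h 132.8 CPM for Myh7b, and with a to d alone standing for the heart the difference was lost (adjusted p = 0.07907). Ppp1r10, a nuclear phosphatase regulator, fell by 0.78 under the Ant1 vector (adjusted p = 0.001491) and rose by 0.61 under the control vector (adjusted p = 0.006347), a difference of -1.39 (SE 0.2, adjusted p = 0.004878). Banp, a nuclear protein, went the opposite way, at 0.84 under the Ant1 vector (adjusted p = 0.000999) and -0.47 under the control vector (adjusted p = 0.03541), with a difference of 1.31 (adjusted p = 0.01174).

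Gpr22, a receptor found in heart and brain, stood at 12.84, 11.61, 10.51 and 18.59 CPM in knockout hearts 20, 21, 22 and 27 and at 41.37, 40.34 and 36.99 CPM in wild type hearts, a log2 change of -1.55 (SE 0.2, adjusted p = 4.15e-05). The difference of -1.3 from the control vector passed (adjusted p = 0.03967) but not when any of knockout hearts 20, 21, 22, 35, 36 and 38 or wild type hearts 80, 81, 83, 24, 25 and 70 was left out, with adjusted p from 0.05129 to 0.111. Gsn and Sox18 passed the difference as well, at 0.47 (adjusted p = 0.03963) and 0.95 (adjusted p = 0.03554), and lost it in 9 (Gsn) and 10 (Sox18) of the 14 fits that left out 1 heart, with adjusted p up to 0.1151 for Gsn and 0.09835 for Sox18. With libraries a to d alone standing for heart 27, these differences were lost for Gsn (adjusted p = 0.06777), Sox18 (0.06777) and Gpr22 (0.08513). Eln, the elastin of vessel walls and valves, had a log2 change of 0.41 under the Ant1 vector (adjusted p = 0.07262) and -0.83 under the control vector, a difference of 1.24 (SE 0.2, adjusted p = 0.01174). Eln passed under the Ant1 vector without knockout heart 27 (adjusted p = 0.03827). The Ankrd2 difference was lost without knockout heart 21 (adjusted p = 0.0777) and in 9 other fits that left out 1 heart, with adjusted p up to 0.1354. Arhgap32, a GTPase-activating protein of synapses, fell by 0.65 under the Ant1 vector (adjusted p = 0.01729) and rose by 0.77 under the control vector, a difference of -1.42 (adjusted p = 0.01174). Its call under the Ant1 vector was lost without knockout heart 22 (adjusted p = 0.05154) or wild type heart 80 (0.09083).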

How the data were processed

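Heart RNA was extracted with TRIzol and read as Ion AmpliSeq libraries on an Ion Torrent S5, per the labels' protocols. The authors deposited 14 tables of raw counts per amplicon, 8 libraries and 23930 amplicons each. The build mm10 is named in the submitters' processing notes, while for aligner and counter the names were not given in the sources used here. Counts of the libraries of a heart were summed, and 27 gene symbols that had been turned into dates were restored. Libraries 80a and 80b, whose label names the other vector than their title, entered only 1 alternative and a check of their counts, and 3 single-nucleus samples were not analysed here. Hearts 61 and 91, knockout hearts with the ND6 variant, also have a title code that conflicts with their control vector label. They entered the fit as a group of their own. All 22 hearts of 7 groups entered 1 fit (edgeR 4.0.16 quasi-likelihood test in R 4.3.3, TMM factors from 0.959 to 1.058, edgeR's filter on low counts), with Benjamini-Hochberg adjustment over all genes and a threshold of 0.05. CPM use the TMM-scaled library sizes. The members and lists were chosen with earlier results of these data known. Named genes were Slc25a4, the 12 largest changes on each side without overlap of hearts and with at least 5 CPM, the 10 largest on each side shared by both vectors, the 8 largest on each side in the difference, up to 4 per list by adjusted p, and 10 genes named throughout. Not all of them are reported here. Alternatives were DESeq2 1.42.0, RLE size factors, testing without the filter on low counts, only the compared groups, 80a and 80b added, each heart left out, heart 20 as the only knockout heart, the count table as covariate (limma 3.58.1 voom), Xist as covariate, and no genes from chromosome 8, 30 to 95 Mb. The alternatives on heart 27 and on airway transcripts were chosen after seeing the data. Counting error is small at these depths, and intervals from counts would cover that error only. The test was checked on simulated data.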

Additional observations from a re-analysis of the deposited data

Results flagged for a closer look

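Among the named genes, in 7 cases a group of 4 hearts held 1 heart that lay far from the rest of its group by Dixon's criterion, which chance meets in about 1 in 20 groups; the 7 are 5.04% of the groups tested, near that share. Knockout heart 20 with the Ant1 vector was highest for Pdhx, at 166.99 CPM with the next heart at 140.2 CPM, and lowest for Ppp1r10, at 30.09 CPM with the next at 49.03 CPM. Knockout heart 27 was highest for Arhgap32, at 21.31 CPM with the next at 15.81 CPM. In the wild type hearts with the control vector, heart 70 was lowest for Mrps18b, at 68.35 CPM, and for Ppp1r10, at 47.77 CPM. Heart 23 of that group was highest for Kcnj2, at 48.8 CPM, and for Gm36670, at 11.55 CPM.

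For 11 genes described above the knockout effect differed between the vectors in the edgeR quasi-likelihood interaction test, given as the log2 change under the Ant1 vector minus that under the control vector. It was 7.75 for Slc25a4, 1.44 for Myh7b, 1.31 for Banp, 1.24 for Eln, 0.95 for Sox18 and 0.47 for Gsn. It was -1.82 for Ankrd2, -1.42 for Arhgap32, -1.39 for Ppp1r10, -1.3 for Gpr22 and -0.71 for Hspb7.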

How the results depend on the processing

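No paired analysis was possible because the knockout and wild type hearts compared share no heart numbers, so no replicate block could be fitted. With 1 heart left out at a time, the count of genes passing ranged from 782 to 1642 under the Ant1 vector, from 1366 to 1976 under the control vector, from 15 to 172 for the difference between the vectors and from 436 to 771 for genes shared by both. With only the compared groups in the fit, 866 genes passed under the Ant1 vector and 441 under both, and with heart 20 as the only knockout heart 473, 316 and, for the difference, 3. The difference passed for 45 genes without the low-count filter, 341 with DESeq2, 494 with the count table as a covariate, 40 with libraries a to d and 42 with libraries e to h standing for heart 27. With the count table as a covariate, single libraries were the units, with a fitted correlation of 0.196 within a heart. There the comparison under the Ant1 vector rests on knockout heart 20 alone. Counts from that fit are therefore not comparable with those from summed hearts. The cause of these moves was not tested. Of 89 gene results, 55 kept their direction and their side of the threshold under every alternative tried and none changed direction; 33 of the 86 that passed were lost in at least 1 alternative. With only the compared groups in the fit, the calls for Ankrd2 (adjusted p = 0.07251), Cryab (0.05616), Aldh1l2 (0.05505), Sdf2l1 (0.08694) and Gsn (0.08099) were lost. With heart 20 as the only knockout heart, Gbe1 (0.07956), Tomm40 (0.0782), Sdf2l1 (0.2524), Flt1 (0.1443), Aqp1 (0.09358) and Arhgap32 (0.1445) lost theirs, as did the differences between vectors of Hspb7 (0.1099), Myh7b (0.08495), Eln (0.06), Banp (0.06743) and Arhgap32 (0.1019). The call was lost for Mrpl41 with the count table as a covariate (0.09582), for Pdhx (0.08262) and Flt1 (0.2232) with libraries a to d for heart 27, and for Arhgap32 (0.05719) with e to h. Of the 1524 genes under the Ant1 vector, 1516 also passed with RLE size factors, 1514 with DESeq2, 984 without the hearts highest in airway transcripts, 877 with the count table as a covariate (3 of the 1524 changed sign), 812 with only the compared groups and 412 with heart 20 as the only knockout heart (3 changed sign). Without the hearts highest in airway transcripts the calls for Sdf2l1 (0.1178) and Gsn (0.1276) were lost. The depth of 16827518 counts or more per heart limits only genes at a few counts.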

Other observations

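Knockout hearts that also carry the ND6 variant and received the control vector, 3 in number and titled 20, 21 and 22 like 3 of the knockout hearts with the Ant1 vector, are given here for genes whose knockout effect differed between the vectors. Hspb7 stood at 3409 to 4099 CPM in them, against 4672 to 5572 CPM in knockout hearts with the control vector and 3427 to 4002 CPM in knockout hearts with the Ant1 vector. Gpr22 stood at 12.36 to 18.38 CPM, against 22.71 to 30.94 CPM and 10.51 to 18.59 CPM in the same order, and Myh7b at 91.79 to 122.5 CPM, against 44.97 to 71.28 CPM and 96.96 to 138.2 CPM. Gdf15, whose difference between the vectors did not pass, stood at 29.7 to 50.41 CPM in them, against 4.967 to 5.884 CPM and 5.293 to 42.89 CPM. Of the 76 genes other than Slc25a4 that passed the difference, 62 had means in these ND6 hearts nearer the knockout mean under the Ant1 vector. The 76 were chosen on the knockout values of both vectors that this count also uses. The share over all genes was not taken, so the count is no measure of likeness between the groups. Hearts 61 and 91, labelled control vector but with a conflicting title code, are not among the ND6 hearts given here. No test was made of these levels.

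Liver markers gave 7 lower of 10 tested under the control vector, where 6.23% of all genes were lower, and none under the Ant1 vector. None of the 10 passed the difference between the vectors. Their summed level ran from 91.37 to 407.4 CPM among the wild type hearts with the control vector. The 80a and 80b libraries, left out of the comparison, differed from 80c and 80d by 1.43 to 2.45 times counting noise. Repeat libraries of hearts 20, 21, 22, 81 and 83 differed by 1.35 (lowest, heart 83) to 4.08 (highest, heart 22).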
